A study of Saccharomyces cerevisiae with 27 samples.

Results

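ECO1, FOB1, RAD61 and HOS1 are 4 genes of budding yeast that act on cohesin or on the ribosomal DNA. They were taken as the probe sets whose gene symbol on the array platform is one of these names. Each gene had 1 probe set, so they are 4 of the 5449 genes with a tested probe set. The labels name mutations in ECO1, FOB1 and RAD61, and no label names a change in HOS1, which therefore serves here as an unaltered gene of the same pathway.

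The arrays came from 9 groups of 3 liquid cultures, grown at 30 °C in rich medium with an amino acid supplement and collected in exponential phase. The mutant groups were eco1-W216G (later experiment date), eco1-W216G fob1Δ and eco1-W216G rad61Δ (earlier date), fob1Δ on the later and again on the earlier date, and rad61Δ (earlier date). A pair of further groups of the earlier date carried an mcd1 mutation with REC8 expressed from the MCD1 promoter, 1 of them also with a fob1 mutation. Wild type was the strain W303a, grown on the later date. The design text writes fob1Δ and rad61Δ, whereas the labels call each allele only a mutant. It names eco1 as the substitution W216G, so the gene was not described as removed. Each genotype has 1 strain identifier, so nothing here separates a genotype from the single strain that carried it.

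Cohesin is a ring of proteins that holds sister chromatids together from S phase until anaphase. Eco1 acetylates the ring subunit Smc3 during replication and so stabilises cohesion, and Hos1 removes that acetyl group once the ring has been opened. Rad61, the yeast counterpart of Wapl, lets cohesin leave DNA. Fob1 binds the ribosomal DNA, where it stalls replication forks that would run against transcription and helps to recruit silencing and condensin factors.

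The deposited values are intensities per probe set, and log2 was taken before testing. Differences were tested with limma over all 5716 probe sets, and a difference is called where its adjusted p is under 0.05. The array medians lay between 1221 and 1268, and arrays of the same group correlated at 0.986 to 0.998. In rad61Δ, replicate 2 was higher than replicates 1 and 3 by a median log2 of 0.82 over the 191 probe sets of chromosome IX. None of the 4 genes lies there: ECO1 is on chromosome VI, FOB1 and RAD61 on IV and HOS1 on XVI. Over those chromosomes the same median was -0.03 (VI), -0.04 (IV) and -0.04 (XVI). The mating type a genes STE2 (11876 to 14546), MFA1 (5590 to 10351) and MFA2 (15725 to 20545) had high intensity on all 27 arrays. BAR1, also specific to a cells, was at only 14.99 to 18.1. Of the alpha-specific genes, MF(ALPHA)1 was at 15.7 to 31.5, MF(ALPHA)2 at 50.6 to 87.5 and STE3 at 43.8 to 156.

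ECO1, the gene of the cohesin acetyltransferase, had low intensity in every culture labelled for an eco1 mutation. It was 24.0, 23.5 and 25.7 in eco1-W216G, 27.7, 28.8 and 34.7 in eco1-W216G fob1Δ, and 23.0, 31.5 and 30.0 in eco1-W216G rad61Δ. The 18 arrays without an eco1 mutation lay between 214 and 296, with a median of 253.6. The 9 mutant arrays thus stood below all others, and their median, 27.7, was 10.9% of that of the other arrays. No strain with ECO1 removed is among the groups, so the intensity of this probe set without any transcript was not measured. How a substitution goes with a signal this low was not tested.

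Against wild type, with 234, 214 and 245, eco1-W216G was lower in ECO1 by 9.47-fold, a log2 difference of -3.24 ± 0.11 (limma SE, n = 3 each, adjusted p = 2.42e-15). In the fob1Δ background, ECO1 in eco1-W216G fob1Δ was 8.39-fold lower than in fob1Δ of the same date, with 262, 265 and 235 (log2 difference -3.07 ± 0.11, adjusted p = 1.54e-14). No other probe set differed by more in that comparison. In the rad61Δ background the drop was 8.59-fold, against 248, 221 and 250.4 in rad61Δ (-3.10 ± 0.11, adjusted p = 6.14e-15). The 3 drops as measured did not differ detectably. The change without FOB1 minus that in the wild-type background was 0.17 ± 0.16 (95% interval -0.15 to 0.50, adjusted p = 0.402). Without RAD61 this difference was 0.14 ± 0.16 (interval -0.19 to 0.47, adjusted p = 0.555). ECO1 in the eco1 strains, at 23.0 to 34.7, was not far above RAD61 (12.8 to 20.4) and FOB1 (13.3 to 19.7) in strains labelled for those. Part of it may be background, so the true drops may be larger and may differ more than measured.

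In the strains without the barrier protein or the release factor, ECO1 lay in the range of the others. In fob1Δ of the later date it was 296, 238 and 295, which was higher than wild type by a log2 of 0.25 ± 0.11 that did not pass the test (adjusted p = 0.125). In the REC8 strains it was 257, 273 and 294 with the fob1 mutation and 262, 247 and 294 without it, a log2 difference of 0.04 ± 0.11 (adjusted p = 0.994). The 6 groups without an eco1 mutation ran in the order fob1Δ (later), mcd1 fob1 REC8, mcd1 REC8, fob1Δ (earlier), rad61Δ and wild type, and each neighbouring pair in this order had overlapping arrays. Among the mutants, with the date difference of fob1Δ subtracted, eco1-W216G fob1Δ was higher in ECO1 than eco1-W216G by 0.43 ± 0.16 (adjusted p = 0.0498), where 26.6% of all probe sets were called. This call was lost without any 1 of 10 arrays, among them eco1-W216G fob1Δ replicate 3 (0.33, adjusted p = 0.147), and also with only the arrays compared (adjusted p = 0.0674). The value for eco1-W216G rad61Δ against eco1-W216G was 0.31 ± 0.16 (adjusted p = 0.227). With no date difference subtracted, the values were 0.31 for eco1-W216G fob1Δ and 0.19 for eco1-W216G rad61Δ. The date difference was read in fob1Δ arrays with ECO1 at 235 to 296, far above the eco1 strains.

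**Figure D1:**
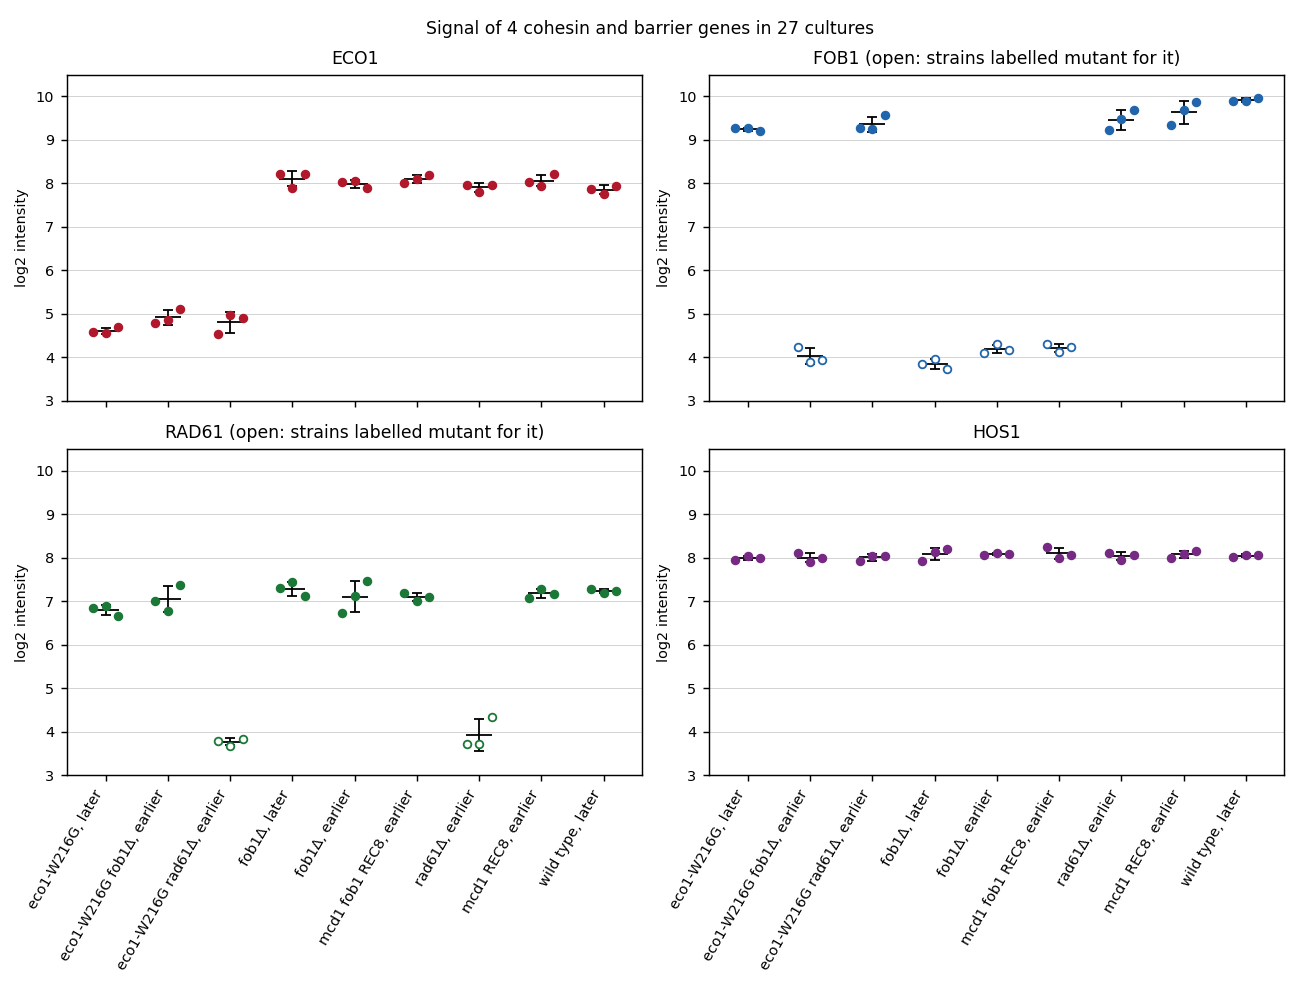
Log2 of the deposited intensity of ECO1, FOB1, RAD61 and HOS1 on each of the 27 arrays, by genotype and date; each point is 1 culture, lines are the mean ± SD (n = 3) and open points are strains labelled mutant for FOB1 or RAD61. The strains labelled for a gene lie far below the others for ECO1, RAD61 and FOB1, whereas HOS1 stays between 239 and 303 in linear intensity on every array.

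HOS1, the deacetylase that reverses the mark set by Eco1, was nearly level. Its intensity was 247, 265 and 257 in eco1-W216G, 274, 239 and 256 in eco1-W216G fob1Δ, and 243, 265 and 265 in eco1-W216G rad61Δ. The fob1Δ arrays had 243, 281 and 296 on the later date and 269, 277 and 274 on the earlier one, and rad61Δ had 278, 245 and 266. The mcd1 REC8 strain had 256, 274 and 283, its fob1 double mutant had 303, 256 and 267, and wild type had 260, 268 and 269. All groups overlap their neighbours in the order of levels, and the highest of the 27 arrays was 1.27 times the lowest.

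The SD of the 9 group means of HOS1 was 0.04 on the log2 scale, and 2.76% of all probe sets had a smaller one (median over all probe sets 0.14). HOS1 was called in 0 of 21 limma comparisons, and in 0 at an unadjusted p under 0.05. The lowest adjusted p was 0.362. In the 11 comparisons within a date or of 1 genotype across dates, the differences ran from -0.09 to 0.04. Their 95% intervals together spanned -0.25 to 0.19, that is 0.842-fold to 1.14-fold, so changes of HOS1 beyond that span lay outside every one of these intervals. Against wild type, eco1-W216G differed by -0.05 ± 0.07 (interval -0.21 to 0.10, adjusted p = 0.570). When quantile normalization was repeated on the whole table, that value became -0.21 ± 0.08 and was called (adjusted p = 0.0352). The same step moved the 434 probe sets within 0.5 log2 of the brightness of HOS1 from a median of -0.01 to -0.18, so the shift was not particular to HOS1.

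**Figure D2:**
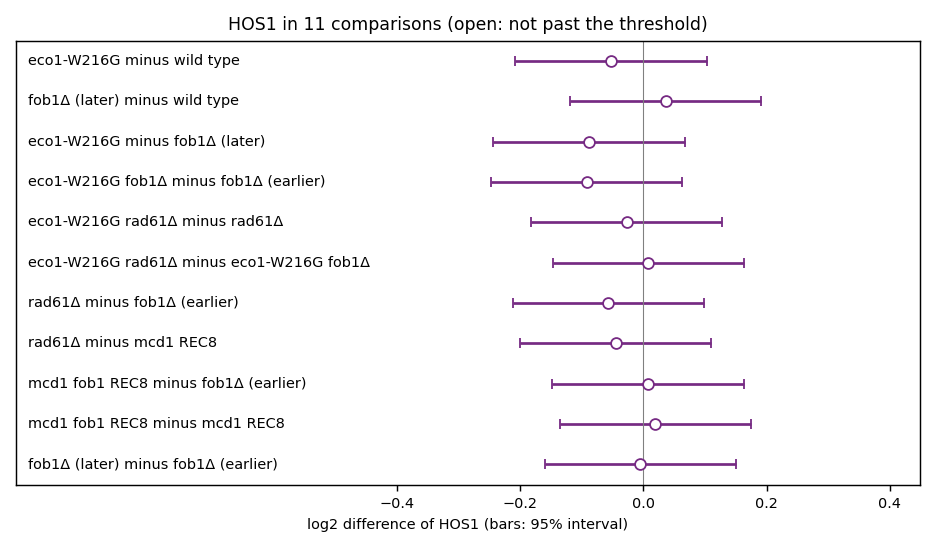
Log2 difference of HOS1 in the 11 comparisons within a date or of 1 genotype across dates, the group named first minus the group named second, with 95% intervals as bars. All 11 points lie between -0.09 and 0.04, and every interval includes 0.

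RAD61, the gene of the release factor, was low in both strains labelled for it. It was 13.9, 12.8 and 14.3 in eco1-W216G rad61Δ and 13.2, 13.1 and 20.4 in rad61Δ. The other 21 arrays lay between 101 and 176, so the groups did not overlap, and the median of the 6 rad61Δ arrays, 13.6, was 9.70% of the median of the others, 139.8. The table has no detection call, and the values of the rad61Δ arrays lie near its lowest intensity, 10.4. They may be background alone, so the RAD61 differences measured from these strains may understate the true drop. Within the earlier date, rad61Δ was lower than the mcd1 REC8 strain, with 136, 156.5 and 144, by at least 9.54-fold (measured log2 difference -3.25 ± 0.17, adjusted p = 7.98e-12), where 0.0525% of all probe sets were called. Against fob1Δ of that date, with 107, 139.8 and 176, the measured difference was -3.18 ± 0.17 (adjusted p = 1.27e-11), where 0.035% were called. In the eco1-W216G background the measured value was -3.28 ± 0.17, against 129, 109.7 and 166 in eco1-W216G fob1Δ (adjusted p = 2.64e-12), where 4.97% were called.

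RAD61 was also lower where only ECO1 was altered. It was 114, 119 and 101 in eco1-W216G, against 156, 146 and 151 in wild type, with no overlap. This was 26.2% lower, a log2 difference of -0.44 ± 0.17 (95% interval -0.78 to -0.10, adjusted p = 0.0297). With quantile normalization repeated it was -0.76, still called. The call was lost without eco1-W216G replicate 1 (-0.46, adjusted p = 0.0506) or 3 (-0.37, 0.106), and without wild-type replicate 1 (-0.41, 0.0749) or 3 (-0.44, 0.0623). Against fob1Δ of the later date, with 157, 173 and 139.7, the difference was -0.49 ± 0.17 (adjusted p = 0.0227). It was lost without eco1-W216G replicate 3 (-0.42, adjusted p = 0.0876) or fob1Δ replicate 1 (-0.48, 0.0547) or 2 (-0.41, 0.0746). In the fob1Δ background RAD61 did not differ detectably, at -0.06 ± 0.17 between eco1-W216G fob1Δ and fob1Δ (interval -0.40 to 0.29, adjusted p = 0.957). The difference between the 2 backgrounds, 0.38 ± 0.23, did not pass the test (interval -0.10 to 0.87, adjusted p = 0.203), though it did when quantile normalization was repeated (0.66, adjusted p = 0.0281). These 2 backgrounds were also grown on different dates. Cultures of 1 group varied more for RAD61, with a within-group SD of 0.22 on the log2 scale, than for 90.5% of all probe sets.

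FOB1, the gene of the fork barrier protein, was low in every strain labelled for it. In strains labelled for a fob1 mutation it was 18.9, 14.9 and 15.4 with eco1-W216G and 19.6, 17.3 and 18.9 with mcd1 and REC8. In fob1Δ alone it was 14.2, 15.5 and 13.3 on the later date and 17.2, 19.7 and 18.01 on the earlier one. These 12 arrays had a median of 17.2, which is 2.41% of the median of the other 15, 716. The 12 low values also lie near the lowest intensity of the table and may be background alone. The FOB1 differences measured from these strains may therefore also understate the true drop. Later fob1Δ was lower than wild type by at least 67.3-fold (measured log2 difference -6.07 ± 0.12, adjusted p = 5.46e-20). Between the REC8 strains FOB1 was at least 42.5-fold lower with the fob1 mutation (-5.41 ± 0.12, adjusted p = 6.45e-19). It was the only probe set called there, 0.0175% of all. The same strain differed between dates by -0.35 on the log2 scale at this probe set, later minus earlier, although the gene is altered on both. For that reason FOB1 is compared across dates only as levels.

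In the strains with no change in FOB1, wild type was the highest. It was 613, 617 and 591 in eco1-W216G, 615, 606 and 755 in eco1-W216G rad61Δ, 595, 716 and 818 in rad61Δ, 649, 819.5 and 929 in the mcd1 REC8 strain, and 944, 954 and 994 in wild type. The 3 wild-type arrays lay above all 12 others, while each other neighbouring pair in the order of levels overlapped. Of these groups, only eco1-W216G shares the later date of wild type. FOB1 in eco1-W216G was 37.0% lower than in wild type, a log2 difference of -0.67 ± 0.12 (95% interval -0.92 to -0.41, adjusted p = 0.000111), and without any 1 array it stayed at -0.68 to -0.65. In the rad61Δ background it was -0.10 ± 0.12 (interval -0.36 to 0.15, adjusted p = 0.658). The difference between these 2 changes was 0.56 ± 0.17 (interval 0.20 to 0.92, adjusted p = 0.0220), where 23.5% of all probe sets were called. It was lost without eco1-W216G replicate 3 (0.54, adjusted p = 0.0510), wild-type replicate 3 (0.54, 0.05002), eco1-W216G rad61Δ replicate 3 (0.46, 0.0679) or rad61Δ replicate 1 (0.44, 0.0679). The 2 pairs were grown on different dates, so background and date cannot be told apart in this difference. Within the earlier date, rad61Δ minus the mcd1 REC8 strain was -0.17 ± 0.12 for FOB1 (adjusted p = 0.781).

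**Figure D3:**
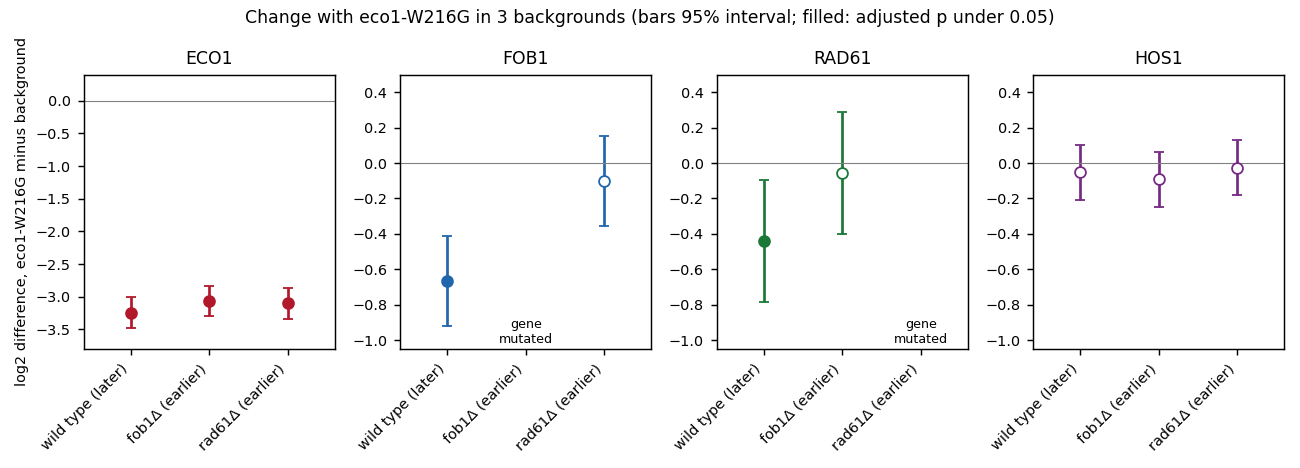
Log2 difference that accompanies eco1-W216G for each of the 4 genes in the wild-type, fob1Δ and rad61Δ backgrounds (mutant minus its background, bars the 95% interval, n = 3 cultures per group). ECO1 lies at -3.24 to -3.07 in every background, FOB1 at -0.67 in the wild-type background and -0.10 without RAD61, and HOS1 lies between -0.09 and -0.03.

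Read over the whole table, these calls have different weights. In eco1-W216G against wild type, ECO1, FOB1 and RAD61 were 3 of 4 called, where 53.6% of all 5716 probe sets were called (30% lower), so a call there sets a gene little apart. In later fob1Δ against wild type 1 of 4 was called, FOB1, where 15.6% were. In eco1-W216G fob1Δ against fob1Δ, ECO1 was called and RAD61 and HOS1 were not, where 0.787% were called. In eco1-W216G rad61Δ against rad61Δ, ECO1 was called and FOB1 and HOS1 were not, where 6.72% were. In eco1-W216G against later fob1Δ, ECO1, FOB1 and RAD61 were called, where 41.3% were.

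The genes that lie next to the 4 were read because a change made in 1 gene can reach its neighbours on the chromosome. The 2 nearest genes with a probe set on each side gave 16 neighbours. In eco1-W216G against wild type 10 of the 16 were called, 1 higher and 9 lower, beside the 53.6% of all probe sets (30% lower). Leaving out 1 array ended the calls of CDC14, DAD1, MED1 and SPE3 in some fits, and that of SPE3 in all 6 (adjusted p up to 0.124). In eco1-W216G fob1Δ against fob1Δ and in eco1-W216G rad61Δ against rad61Δ 0 of 16 were called by limma. These 2 counts were not recomputed with replicate number in the fit. At an unadjusted p under 0.05 there were 3 and 0 neighbours, beside 637 and 1323 of all 5716 probe sets. In later fob1Δ against wild type 4 neighbours were called, 3 higher and 1 lower, beside 15.6% of all probe sets (499 higher and 395 lower). All 4 of these calls were lost when only the arrays compared entered the fit (adjusted p up to 0.218).

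ULI1, a neighbour of ECO1, is named for a role in the unfolded protein response. It was 336, 324 and 371 in eco1-W216G, against 213, 211 and 178 in wild type, and the other 21 arrays lay between 188 and 229. The 3 eco1-W216G arrays were above all others, by a log2 of 0.78 over wild type (adjusted p = 3.36e-09). In the double mutants, which carry the same eco1 label, ULI1 differed from their backgrounds by -0.06 without FOB1 and 0.10 without RAD61, neither called. Those changes differed from that in the wild-type background by -0.84 and -0.68 (adjusted p = 6.67e-07 and 2.61e-05). Both differences subtract the same change of the later date from a change of the earlier date. They are thus not independent, and they also compare dates. On its other side ECO1 has CDC14, the mitotic exit phosphatase, which fell by 0.24 in eco1-W216G (adjusted p = 0.0191). Leaving out eco1-W216G replicate 2 or wild-type replicate 3 ended that call (adjusted p up to 0.0658).

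PSF1, a GINS subunit needed for replication and a neighbour of RAD61, had low intensity in the rad61Δ strains, but was called lower only in eco1-W216G rad61Δ. It was 1097, 1222.5 and 1269 in eco1-W216G rad61Δ and 1454, 1161 and 1393 in rad61Δ. The other 21 arrays lay between 1453.5 and 1868, so the groups overlapped by the nearest pair of arrays. In eco1-W216G rad61Δ against eco1-W216G fob1Δ the log2 difference was -0.40 ± 0.09 (adjusted p = 0.00905). It was the 1 neighbour of 16 called there, where 4.97% of all probe sets were. Leaving out eco1-W216G rad61Δ replicate 1 or eco1-W216G fob1Δ replicate 2 ended that call (adjusted p up to 0.0673). For rad61Δ against fob1Δ the PSF1 difference was -0.33 (adjusted p = 0.503) and against the mcd1 REC8 strain -0.27 (adjusted p = 0.348), neither called. With the date difference of fob1Δ subtracted, eco1-W216G rad61Δ was called lower than wild type (-0.40, adjusted p = 0.0304) and than eco1-W216G (-0.43, 0.0323). Leaving out 1 array ended these calls in 5 and 7 fits (adjusted p up to 0.107). DAD1, KCS1 and RPL4B, the other neighbours of RAD61, had overlapping ranges in arrays with and without the deletion.

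YDR109C, beside FOB1, was 298 to 364 on the 12 arrays with a fob1 mutation and 207 to 314 on the other 15. Its log2 difference in later fob1Δ against wild type was 0.39 (adjusted p = 0.0125), a call lost without wild-type replicate 3 and with only the arrays compared (adjusted p up to 0.0804). Between the REC8 strains it was 0.27 and not called. In eco1-W216G, which has FOB1, YDR109C was 209, 207 and 213, below all other arrays. On the other side of FOB1, ALT2, a homologue of alanine transaminase, fell by 0.52 in eco1-W216G, and PDS1, the securin, fell by 0.59.

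**Figure D4:**
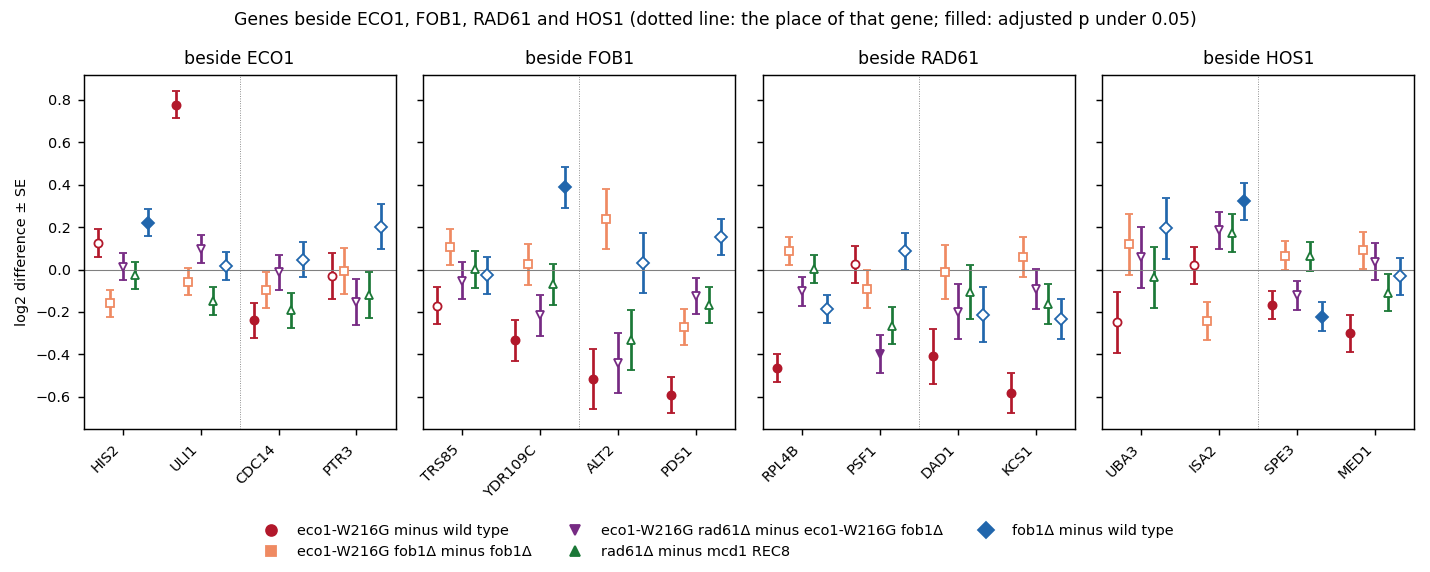
Log2 difference (± SE, n = 3 cultures per group) of the 4 nearest genes beside each of ECO1, FOB1, RAD61 and HOS1 in 5 comparisons, filled where the adjusted p is under 0.05; the dotted line marks the place of the gene itself. ULI1 stands out upward in eco1-W216G minus wild type (0.78), and PSF1 lies below 0 in both rad61Δ comparisons (-0.40 and -0.27).

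The other genes of these pathways were next read as 4 lists, first in eco1-W216G against wild type, where 53.6% of all probe sets were called and the median of all was -0.05. Of the 9 genes of the cohesin ring, its loader and the protease that opens it, 0 rose and 5 fell (median -0.27). They included SMC3, the subunit that Eco1 acetylates, at -0.52, the securin PDS1 at -0.59, the separase ESP1 at -0.45 and the loader subunit SCC2 at -0.27. The fifth, the kleisin subunit MCD1, was at -0.18 (adjusted p = 0.0323). Its call was lost in 6 of 12 alternatives, among them only the arrays compared (adjusted p = 0.0635) and quantile normalization repeated. Of 11 genes of cohesion at replication forks, 5 fell and 1 rose (median -0.14). CTF18, of the alternative clamp loader, was at -0.79, and TOF1 and CTF4, which travel with the fork, were at -0.44 and -0.34. DCC1, a partner of Ctf18 in the same loader, rose by 0.33. The call of ELG1, of another clamp loader, at -0.32, was lost without eco1-W216G replicate 1 or wild-type replicate 1 or 3 (adjusted p up to 0.0762).

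Of the 8 genes that work with Fob1 at the ribosomal DNA, 7 fell and 1 rose (median -0.33). The topoisomerase TOP1 was at -0.67, the silencing deacetylase SIR2 at -0.47 and its nucleolar anchor NET1 at -0.40. CSM1, which links silenced ribosomal DNA to condensin, rose by 0.41. The call of its partner LRS4, at -0.23, was lost without eco1-W216G replicate 2 or wild-type replicate 2 (adjusted p up to 0.0557), and that of CDC14 as given above. Of 9 lysine deacetylase genes other than HOS1, 4 fell and 1 rose (median -0.19). HDA1 was at -0.58, HST1 at -0.54 and SIR2, which is on both lists, at -0.47, while HST4 was at 0.58. HOS1, at -0.05, was not among the genes called.

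When eco1-W216G was brought into fob1Δ or into rad61Δ, 0 genes of any of the 4 lists were called by limma, where 0.787% and 6.72% of all probe sets were. These counts of 0 were not recomputed with replicate number in the fit, which raised the calls over all probe sets to 99 and 823. At an unadjusted p under 0.05 there were 3 ring genes, 2 fork genes, 1 ribosomal DNA gene and 3 deacetylase genes without FOB1. This stands beside 637 of all 5716 probe sets. Without RAD61 there were 2, 1, 1 and 1 in that order, beside 1323 of all 5716 probe sets. The medians without FOB1 were -0.08 for the ring, -0.07 for the fork, -0.09 for the ribosomal DNA and -0.09 for the deacetylases. Without RAD61 they were -0.12, -0.14, -0.13 and 0.01 in that order, with -0.01 over all probe sets. The change that goes with eco1-W216G differed between backgrounds at 39.2% of all probe sets without FOB1 and 23.5% without RAD61. For SMC3 it differed by 0.53 without FOB1 (adjusted p = 0.000485) and 0.51 without RAD61 (adjusted p = 0.00173). For CTF18 the values were 0.64 (adjusted p = 0.00200) and 0.90 (adjusted p = 0.000232), and for HST4 -0.41 (adjusted p = 0.00304) and -0.45 (adjusted p = 0.00316). Both kinds of difference subtract the same later change, eco1-W216G against wild type, from a change of the earlier date. They are therefore not independent of each other, and background and date cannot be told apart in them.

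Which arrays stood apart differed from gene to gene. SMC3 was 1651 to 1791 in eco1-W216G and 1524 to 2190 on the 21 arrays of the other mutants, against 2270 to 2719 in wild type. Wild type was thus above every mutant array for SMC3, as it was for FOB1. TOP1 had the same order, with 507 to 605 in eco1-W216G and 514 to 736 on the other mutant arrays, against 817 to 943 in wild type. SCC2 also did, at 1190 to 1320 and 1163 to 1396, against 1469 to 1531.5 in wild type. HST4 behaved otherwise, with eco1-W216G (989 to 1129) above both the other mutants (680 to 903) and wild type (696 to 726). ESP1 was below all in eco1-W216G, at 721 to 781, against 949 to 1164.5 in the other mutants and 960 to 1094.5 in wild type. DCC1 and CSM1 were above all others and PDS1, TOF1, HDA1 and HST1 below all others in eco1-W216G. Wild type and eco1-W216G shared the later date with only fob1Δ, so the part of the date in these levels cannot be told apart from genotype for the other strains.

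**Figure D5:**
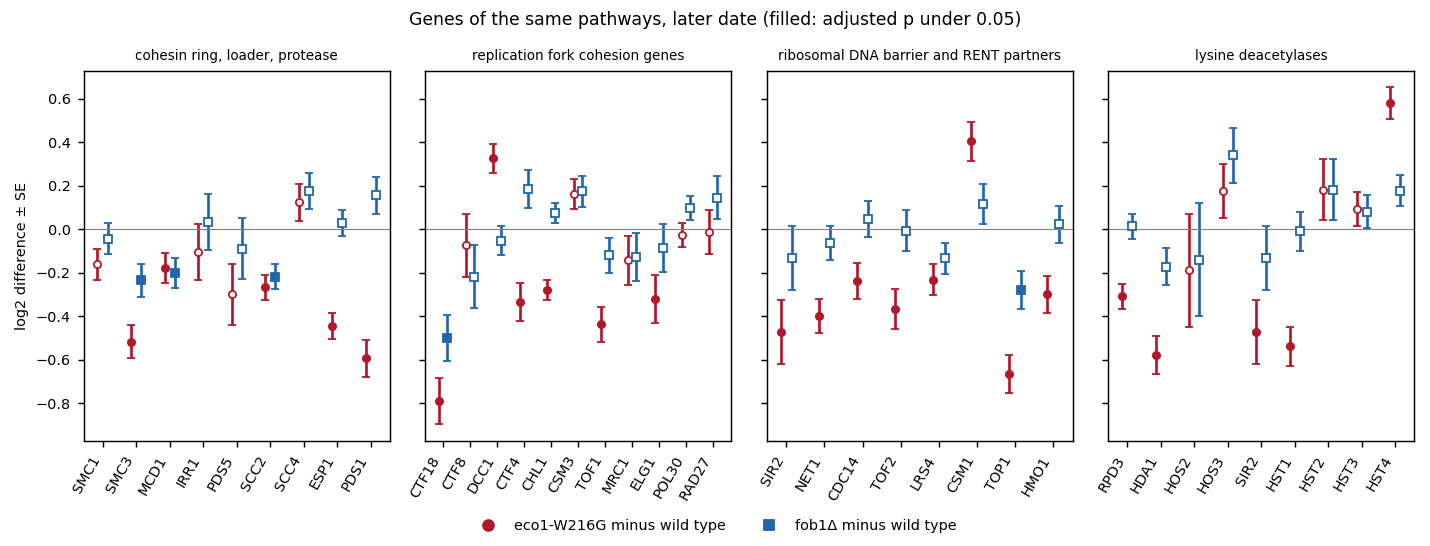
Log2 difference (± SE, n = 3 cultures per group) of the genes on the 4 lists, for eco1-W216G minus wild type and fob1Δ minus wild type on the later date, filled where the adjusted p is under 0.05. Most called genes lie below 0 in eco1-W216G, with DCC1 (0.33), CSM1 (0.41) and HST4 (0.58) above it.

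In later fob1Δ against wild type, 15.6% of all probe sets were called, 499 higher and 395 lower. The lists had 3 of 9 ring genes, 1 of 11 fork genes and 1 of 8 ribosomal DNA genes called lower. Of 9 deacetylase genes 0 were called, and 2 were at an unadjusted p under 0.05, beside 1764 of all 5716 probe sets. The ring genes were SMC3 at -0.24, SCC2 at -0.22 and MCD1 at -0.20, and the others were CTF18 at -0.50 and TOP1 at -0.28. All 5 of these calls were lost when only the arrays compared entered the fit (adjusted p up to 0.165).

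The selectable marker genes, read because strains of this kind are made with them, matched 5 of 6 symbols. URA3 was at 9559 to 11277 in both REC8 strains, against 2002 to 2804 on the other 21 arrays. LEU2 was 1192, 1080 and 1429 in eco1-W216G, against 2409, 2456 and 2365 in wild type, a log2 difference of -0.98. It was the 1 marker of 5 called there, where 53.6% of all probe sets were. Which markers the strains carry at ECO1, FOB1 or RAD61 is not stated in the labels, and their part in the results was not tested. Of the mating genes, MFA1 was called higher in eco1-W216G against wild type (0.37), and so were MF(ALPHA)1 (0.58) and STE3 (0.65). That is 1 of 4 genes of type a and 2 of 3 of type alpha, where 53.6% of all probe sets were called. MF(ALPHA)1 was at only 15.7 to 31.5 over all 27 arrays, near FOB1 in strains labelled for it (13.3 to 19.7). The part of the mating genes in the results was not tested.

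The genes whose pattern was most like each of the 4 were found by Pearson's r of log2 values over the arrays in which no label alters that gene. For FOB1 (15 arrays) they were GCD10 (0.951), CTK1 (0.948), SYO1 (0.938), TRM1 (0.937) and SHE3 (0.935). For RAD61 (21 arrays) they were YAP7 (0.868), FHL1 (0.864), CDH1 (0.847), SPT10 (0.841) and STP1 (0.827). For ECO1 (18 arrays) they were IES6 (0.789), HRT1 (0.767), SWC5 (0.765), YGR121W-A (0.750) and IXR1 (0.748). For HOS1 (27 arrays) the highest values were lower, with RER2 (0.609), UCC1 (0.608), ALF1 (0.601), PPH3 (0.579) and SLD2 (0.574). These arrays share genotypes, dates and 1 normalization, and cultures of a group are not independent of each other.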

How the data were processed

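RNA of 27 yeast cultures, from 300 ng of total RNA each, was measured on Affymetrix arrays. The deposited intensity per probe set was made by the authors with RMA, and the submitters' processing notes give R 2.15.2. Whether the dates were normalized together is not given in the sources used here. The intensities were linear (10.4 to 39895), and log2 was taken, as the planned test required. The table has 5814 probe sets, of which 51 are controls and 47 reporters; neither kind was tested. The remaining 5716 include 5498 with 1 gene symbol and 218 with none. No detection call was used, and arrays have no depth: their number limits the precision.

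limma 3.58.1 in R 4.3.3 fitted 9 group means in 1 model (18 residual degrees of freedom). Tests were two-sided, and p-values were adjusted by Benjamini-Hochberg over all probe sets within a comparison, with a threshold of 0.05. Contrasts between dates subtracted the date difference of fob1Δ. The design text says that cultures were grown in triplicate, so p-values measure the spread between cultures of 1 strain. The fit was also run on simulated data in which arrays were independent. That run did not cover same-numbered arrays that deviate together.

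The genes named are the 4 themselves, their 2 nearest measured neighbours on each side in the R64 gene table (used for names and order only), the 5 genes of highest correlation with each, and, of each list, at most 4 called members with the largest difference. The lists were 9 genes of the cohesin ring, loader and protease, 11 of cohesion at forks, 8 at the ribosomal DNA, 9 deacetylases, 6 selectable markers, and mating type markers (4 for a, 3 for alpha). Among the neighbours, the calls lost and in the ranges by array, genes were singled out after their values were seen. Members and lists were chosen with earlier results of these data known.

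Alternatives were repeated quantile normalization, median centring, dim probe sets left out, a trended and robust prior, only the arrays compared, no date term, experiment date as a random block, a replicate block within date, and leaving out each array.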

Additional observations from a re-analysis of the deposited data

Results flagged for a closer look

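FOB1 drew attention because the change that goes with eco1-W216G differed between backgrounds by a test of the difference itself. It was -0.10 ± 0.12 in the rad61Δ background and -0.67 ± 0.12 in the wild-type background, and the difference was 0.56 ± 0.17 on the log2 scale (limma, adjusted p = 0.0220, n = 3 cultures per group). The same test called 23.5% of all probe sets, so it sets FOB1 little apart. Its call was lost without any 1 of 4 arrays (adjusted p up to 0.0679). The wild-type pair was of the later date and the rad61Δ pair of the earlier one, so background and date cannot be told apart here. Wild type, grown on the later date only, was above all 12 other arrays with FOB1, of which only those of eco1-W216G share its date. Each of the 4 groups in the difference has 3 cultures of 1 strain.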

How the results depend on the processing

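Of 27 differences of the 4 genes recomputed, 22 were called, and 18 of these kept their call under every alternative run. The 4 that lost it are the RAD61 difference of eco1-W216G against wild type (-0.49 to -0.37 when each array was left out in turn, -0.76 with quantile normalization repeated), that against later fob1Δ, the ECO1 difference of eco1-W216G fob1Δ against eco1-W216G, and the FOB1 difference between backgrounds (0.44 to 0.67). Of the 18 that kept their call, all but 1 compare a gene between strains labelled mutant for it and strains that are not. For FOB1 and RAD61 such calls check the strain labels. For ECO1 they do not, since the design text names a substitution and not a removal. The exception is FOB1 in eco1-W216G against wild type. The 4 that lost their call are not of that kind. HOS1, called in 0 comparisons, was called in 1 with quantile normalization repeated (eco1-W216G minus wild type, -0.21). That step also turned its value in later fob1Δ against wild type to -0.025, and leaving out 1 array gave -0.023 to 0.12 there, the lowest without fob1Δ replicate 3. For HOS1 in eco1-W216G rad61Δ against rad61Δ, leaving out 1 array gave -0.076 to 0.016, with 0.016 without eco1-W216G rad61Δ replicate 1 and 0.012 without rad61Δ replicate 1. The RAD61 difference between the fob1Δ and wild-type backgrounds became called with quantile normalization repeated (0.66), and the cause was not tested.

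Replicate numbers were not taken as pairs in the main fit, although same-numbered arrays of 1 date deviated together. Their median r was 0.27, with 42 of 54 pairs over 0.1. Arrays of different numbers on the same date had a median r of -0.17, with 16 of 108 over 0.1. By this measure 25 of 27 arrays were closest to their own number, among them all 18 of the earlier date. With a replicate block within date no call of the 4 genes changed (RAD61 in eco1-W216G against wild type stayed at -0.44). Counts of called probe sets became 1437 for later fob1Δ against wild type (894 without the block), 99 for eco1-W216G fob1Δ against fob1Δ (45), 823 for eco1-W216G rad61Δ against rad61Δ (384) and 8 for rad61Δ against mcd1 REC8 (3). Leaving out 1 array gave 216 to 1313, 12 to 30, 183 to 553 and 2 to 6 for these. The counts of 0 called neighbours and list genes in the eco1 double mutants against their backgrounds were not recomputed with the block. With only the arrays compared, the count for later fob1Δ against wild type fell to 1 and that for eco1-W216G rad61Δ against rad61Δ to 182. The calls of later fob1Δ against wild type were 499 higher and 395 lower, and 452 and 454 after median centring. Of 57 differences of other genes named or weighed, 38 kept their call, or its absence, under all alternatives, and none reversed.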
